A study of Mus musculus with 9 samples.

Results

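Tnfsf12 encodes TWEAK, a cytokine of the tumour necrosis factor (TNF) superfamily, and Tnfrsf12a encodes Fn14, its receptor. These 2 genes were found by symbol among the 55401 rows of a gene count table made from mouse heart RNA. They were chosen by name with levels in these same 9 libraries already known, and which values drew attention to them is not recorded. All their values are therefore given as a description, without a test.

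The series measured poly(A) RNA of mouse heart in 9 libraries, 3 under each of 3 treatment labels. The labels give heart as the source, although their extraction text speaks of adipose RNA. All 9 are labelled C57BL/6. The Ctrl libraries have the treatment PBS, the saline vehicle. The AngII libraries have Ang II, the peptide hormone angiotensin II, which raises blood pressure and is given to mice to enlarge the heart. The Kmo_AngII libraries are described as Kmo+Ang II and also have the treatment Ang II. The labels do not explain Kmo. The sources used here give no dose, duration, sex, age or number of hearts per library. The sample titles group the libraries in another way, by the prefixes WC, WA and KKA, which the labels do not explain either. WC covers Ctrl replicate 1 with AngII replicates 1 and 2, WA covers Ctrl replicates 2 and 3 with AngII replicate 3, and KKA covers the 3 Kmo_AngII libraries. Treatment label and title prefix thus cross for 6 libraries and coincide for the other 3. The receptor's level separated WA from WC and not AngII from Ctrl, and nothing in the labels settles which of the groupings follows the treatment given, so every comparison by treatment label is one of libraries as labelled. The labels name the 9 libraries as separate samples and do not say that they came from separate animals. A p-value therefore sets a difference against the spread between these libraries, which is not known to be that between animals.

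TWEAK is made as a membrane protein that can be cleaved to a soluble form, and many cell types, macrophages among them, produce it. Fn14 is a short receptor without a death domain: its cytoplasmic tail binds TNF receptor-associated factors (TRAFs), which lead to both branches of NF-kB signalling. The receptor was first described as an immediate-early gene induced by fibroblast growth factor, its level is low in most healthy adult tissue, and it is known to rise in injured or overloaded heart and skeletal muscle. Cd163, a scavenger receptor of macrophages, binds TWEAK as well.

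To show how the starts of the receptor and ligand genes differ, the 250 bases before each RefSeq start are printed from the GRCm38.p6 assembly, minus strand, 5′ to 3′, with each match to GGGCGG on either strand (the core letters of an Sp1 box) in capitals. The receptor's window is chr17:23677450-23677699. The ligand's window, chr11:69696099-69696348, is also that of Tnfsfm13, a read-through gene that shares its start.
Tnfrsf12a: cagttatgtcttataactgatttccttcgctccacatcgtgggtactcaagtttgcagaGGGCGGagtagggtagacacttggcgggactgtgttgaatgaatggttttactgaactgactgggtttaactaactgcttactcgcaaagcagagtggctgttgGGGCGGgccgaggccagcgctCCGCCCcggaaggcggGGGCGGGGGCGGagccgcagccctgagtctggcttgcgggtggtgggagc
Tnfsf12: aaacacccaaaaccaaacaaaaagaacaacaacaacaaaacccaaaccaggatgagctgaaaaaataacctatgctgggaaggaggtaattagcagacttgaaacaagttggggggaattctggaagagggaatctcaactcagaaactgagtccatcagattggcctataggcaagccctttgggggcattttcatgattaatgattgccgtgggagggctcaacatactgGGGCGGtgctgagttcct
The receptor's window held 5 matches and a GC content of 58.8%, and the ligand's held 1 match and 45.2%, where the median over 32536 windows of this length was 52.4% and 33% of them held at least 1 match. How many of them held 5 or more was not counted. Neither window held TGANTCA, the AP-1 letters found in 6.73% of windows, or GGAATG, the TEAD letters found in 12.6%, on either strand. The serum response element core (CArG) occurred in 1.48% of windows and the NF-kB motif in 7.28%, and neither was in these 2. A match in these letters is a description of the sequence and not a site.

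Library totals ran from 56827533 to 73194268 counts, and mitochondrially encoded genes took 30.3% to 55.5% of them. The scaling factors of edgeR's TMM method, which sets libraries level on most of their genes, ran from 0.6811 (Ctrl replicate 2) to 1.361 (AngII replicate 1), so levels also depend on this scaling. Defining heart muscle markers were high in all 9 libraries, with a sum over 7 genes of 15791 to 42342 counts-per-million (CPM). Kmo_AngII replicate 3 stood apart: its 4 atrial muscle markers summed to 1184 CPM, against 148 in Ctrl replicate 2 and 2.01 to 3.58 in the other 7 libraries. Its epicardial markers (70.9 CPM) and adipocyte markers (23.7 CPM) were also the highest of the 9. Values without Ctrl replicate 2 or Kmo_AngII replicate 3 are therefore given beside receptor and ligand results that these libraries move. In bulk tissue, fewer cells of a type and less RNA per cell cannot be told apart.

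The level of the receptor Tnfrsf12a (ENSMUSG00000023905) fell into a low and a high set of libraries. On the TMM scale it was 9.16, 58.5 and 61.1 CPM in Ctrl replicates 1, 2 and 3, which rest on 517, 2452 and 3515 counts. In AngII replicates 1, 2 and 3 it was 12.0, 8.06 and 60.5 CPM, from 1017, 542 and 4889 counts. The Kmo_AngII replicates had 96.6, 15.2 and 5.98 CPM, from 8084, 998 and 303 counts. Each treatment label thus held both low and high libraries, and all 3 labels overlapped. In order, the levels ran from Kmo_AngII replicate 3 up to Kmo_AngII replicate 2 (5.98 to 15.2 CPM, 5 libraries), and then from Ctrl replicate 2 up to Kmo_AngII replicate 1 (58.5 to 96.6 CPM, 4 libraries), with no library between 15.2 and 58.5 CPM. The highest library was 16.2 times the lowest, and 23.3 times with library size as the only scaling. In variability over the 9 libraries, as the SD of log2 CPM, the receptor exceeded 96.4% of the 19091 genes tested, and in mean level it exceeded 79.1%.

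Split by title prefix, the receptor's low and high libraries separated. The 3 WC libraries had 9.73 ± 2.02 CPM (SD, n = 3) and the 3 WA libraries 60.02 ± 1.36 CPM (SD, n = 3). The lowest WA library, at 58.5 CPM, lay far above the highest WC library, at 12.0 CPM. The 3 KKA libraries spanned both levels, at 39.3 ± 49.9 CPM (SD, n = 3): the first of them was the highest of all 9 libraries and the third the lowest. Within a prefix the treatment labels lay close together. Among WC libraries the Ctrl library, at 9.16 CPM, lay between the AngII libraries at 8.06 and 12.0 CPM. Among WA libraries the AngII library, at 60.5 CPM, lay between the Ctrl libraries at 58.5 and 61.1 CPM.

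**Figure D1:**
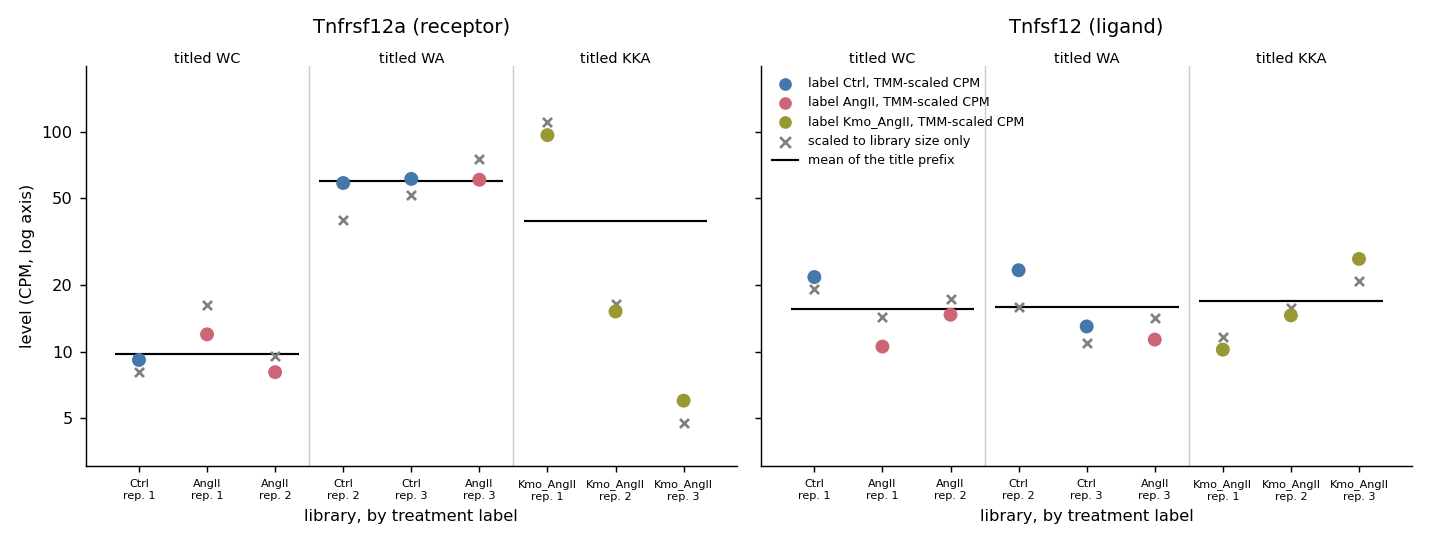
Level of Tnfrsf12a (left) and Tnfsf12 (right) in CPM on a log axis, for each of the 9 libraries, ordered by title prefix and coloured by treatment label; dots are TMM-scaled, crosses are scaled to library size only and lines are means of 3 dots. The receptor sits at 8.06 to 12.0 CPM in the WC libraries and 58.5 to 61.1 CPM in the WA libraries, while the ligand stays between 10.2 and 26.4 CPM throughout.

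By treatment label the receptor averaged 42.9 ± 29.2 CPM over the Ctrl libraries, 26.8 ± 29.2 over AngII and 39.3 ± 49.9 over Kmo_AngII (SD, n = 3 per label). The fitted log2 differences were -0.68 for AngII minus Ctrl, 0.55 for Kmo_AngII minus AngII and -0.13 for Kmo_AngII minus Ctrl, each smaller than the spread within the labels. Single libraries set these values. Leaving out AngII replicate 3 took AngII minus Ctrl to -2.10, and leaving out AngII replicate 2 took it to -0.24. It was -1.15 when Ctrl replicate 1 was dropped and -0.39 when Ctrl replicate 2 was. Kmo_AngII minus AngII turned to -1.34 when Kmo_AngII replicate 1 was left out and became 1.97 when AngII replicate 3 was and 1.06 when Kmo_AngII replicate 3 was. Kmo_AngII minus Ctrl changed direction between -2.02 when Kmo_AngII replicate 1 was dropped, 0.16 when Ctrl replicate 2 was and 0.38 when Kmo_AngII replicate 3 was. With title prefix as a covariate, AngII minus Ctrl was 0.07.

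By title prefix, the receptor's log2 difference for WA minus WC was 2.62 in the fit over 9 libraries, or 6.16-fold, and 2.64, or 6.22-fold, in a fit of the 6 WA and WC libraries alone. Without Ctrl replicate 2 these were 2.64 and 2.66. The groups did not overlap, and the same held, in this direction, for 16.5% of the 19091 genes, so the separation itself was common in these libraries. KKA minus WC was 2.01, which became 0.12 without Kmo_AngII replicate 1 and 2.52 without Kmo_AngII replicate 3. KKA minus WA was -0.61, which became -2.50 without Kmo_AngII replicate 1 and -0.10 without Kmo_AngII replicate 3. With library size as the only scaling, WA minus WC was 2.30. Relative to the median gene, it was 2.65 on the TMM scale and 2.63 with library size only.

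The ligand Tnfsf12 (ENSMUSG00000097328) varied far less. It had 21.8, 23.4 and 13.01 CPM in Ctrl replicates 1, 2 and 3, and 10.5, 14.7 and 11.3 CPM in AngII replicates 1, 2 and 3. The Kmo_AngII replicates had 10.2, 14.6 and 26.4 CPM. The labels overlapped, although the highest Ctrl libraries, replicates 1 and 2, lay above every AngII library. The highest library, Kmo_AngII replicate 3, was 2.59 times the lowest, Kmo_AngII replicate 1, and with library size only this ratio was 1.91. Counts ran from 749 to 1338 per library. In mean level the ligand exceeded 70.5% of genes tested, and in variability 54.9%.

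The ligand averaged 19.4 ± 5.62 CPM over the Ctrl libraries, 12.2 ± 2.22 over AngII and 17.1 ± 8.38 over Kmo_AngII (SD, n = 3 per label). The fitted log2 difference for AngII minus Ctrl was -0.67 and became -0.01 when only library size was used, a setting that moved the median of all genes in this comparison from 0.02 to 0.67. Relative to the median gene the ligand's difference was -0.69 and -0.68 under these settings. Kmo_AngII minus AngII was 0.48, or 0.02 without Kmo_AngII replicate 3, and Kmo_AngII minus Ctrl was -0.19, or -0.65 without that library and 0.077 without Kmo_AngII replicate 1. By title prefix the means were 15.7 ± 5.71 CPM in WC and 15.9 ± 6.56 in WA (SD, n = 3 each), a log2 difference of 0.02, with overlapping groups. This near-zero value turned to -0.36 without Ctrl replicate 2 and to 0.33 without Ctrl replicate 1. KKA minus WC was 0.12 and KKA minus WA 0.10, and without Kmo_AngII replicate 3 they were -0.34 and -0.36. KKA minus WC was 0.43 without Ctrl replicate 1, and KKA minus WA was 0.48 without Ctrl replicate 2 and -0.095 without AngII replicate 3.

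**Figure D2:**
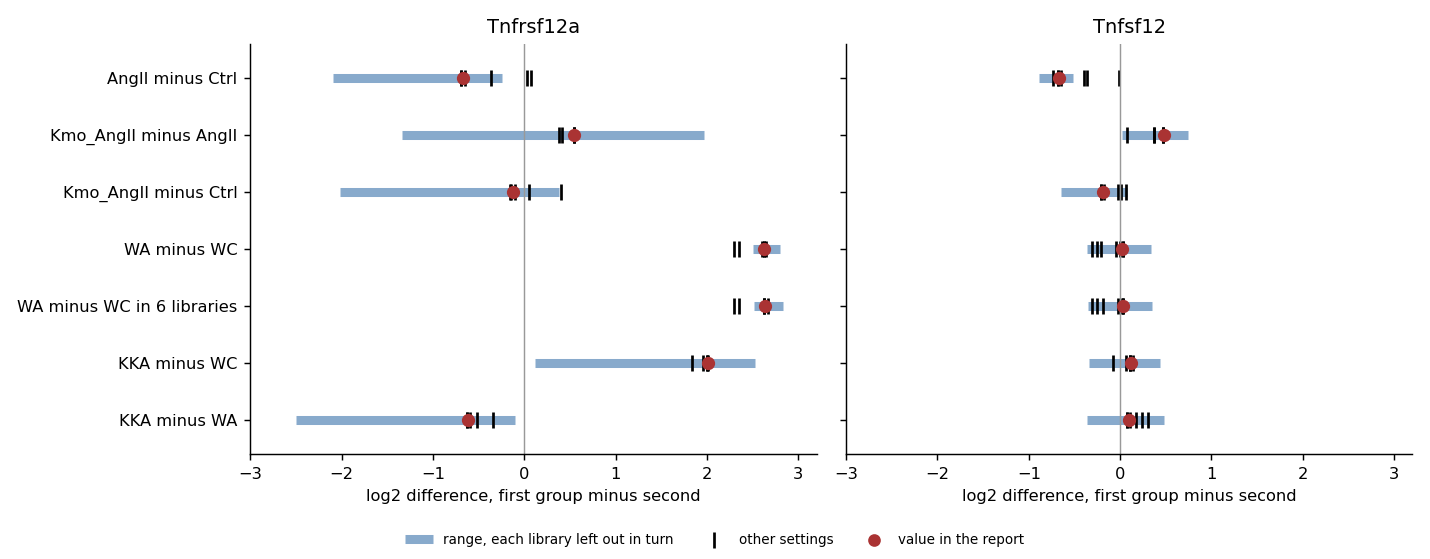
Fitted log2 difference, first group minus second, of Tnfrsf12a (left) and Tnfsf12 (right) in each comparison; the dot is the value in the text, the bar the range when each library is left out in turn and the ticks the other processing settings. The receptor's WA minus WC values stay between 2.30 and 2.83, while its bars for Kmo_AngII minus AngII and Kmo_AngII minus Ctrl cross 0.

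Ligand and receptor levels can be compared only per length. Per kilobase of exon in the GENCODE M21 annotation, the receptor (1932 exonic bases) had 3.09 to 49.99 CPM and the ligand (1515 exonic bases) 6.73 to 17.4. The receptor's level per kilobase was 0.329, 1.96 and 3.68 times the ligand's in Ctrl replicates 1, 2 and 3, and 0.891, 0.429 and 4.19 times in AngII replicates 1, 2 and 3. In the Kmo_AngII replicates the ratio was 7.42, 0.817 and 0.178. It was above 1 in the 4 libraries with a high receptor level and below 1 in the other 5, and its highest value was 41.8 times its lowest. The ligand's length used here includes 731 bases shared with Tnfsfm13, beside 784 of its own, and how shared reads were divided is not stated. The size of the ratio relative to 1 is therefore uncertain. Across the 9 libraries, log2 levels of receptor and ligand had a Pearson r of -0.452, a description over libraries that share their scaling. It was -0.709 without Ctrl replicate 2, -0.255 without Kmo_AngII replicate 3 and -0.614 without both. The ligand's TMM-scaled level was highest in the libraries with the most mitochondrial counts, and its range narrowed when only library size was used; the part of mitochondrial counts in it was not tested.

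The ligand's counts share their exons with neighbours, and the receptor's do not. On chromosome 17, Tnfrsf12a overlaps no other annotated gene. On chromosome 11, 731 of the ligand's 1515 exonic bases (48.25%) are also exons of the read-through gene Tnfsfm13, which joins the ligand to its neighbour Tnfsf13, the gene of the B cell cytokine APRIL. The antisense gene Tnfsf13os overlaps as well, at 0.26 to 1.03 CPM. Tnfsfm13 had 7.83, 6.42 and 6.01 CPM in Ctrl replicates 1, 2 and 3, 7.97, 7.19 and 7.91 CPM in AngII, and 8.33, 6.53 and 11.1 CPM in Kmo_AngII. On this scale its libraries spanned 1.84-fold against the ligand's 2.59-fold, but with library size only the order turned, to 2.48-fold against 1.91-fold. How counting divided reads from the shared exons, and whether it used strand, is not stated in the labels or notes, so the levels of both genes are uncertain. Added together, they ran from 18.5 to 37.5 CPM, a 2.02-fold range, and Tnfsfm13 made up 21.5% to 44.9% of the sum. For the sum, AngII minus Ctrl was -0.40 on the log2 scale and Kmo_AngII minus Ctrl -0.027, against -0.67 and -0.19 for the ligand alone. Tnfsf13 itself had 1.19 to 2.84 CPM.

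**Figure D3:**
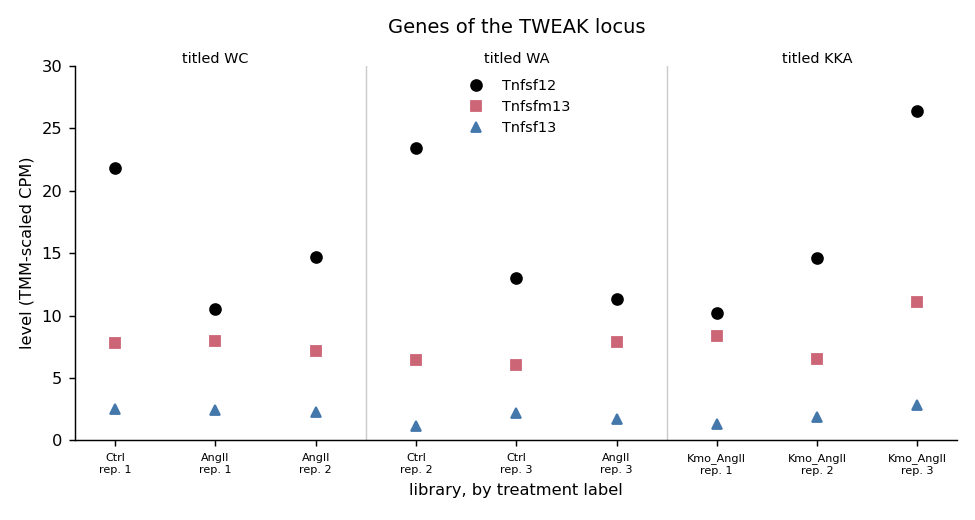
TMM-scaled level, in CPM, of Tnfsf12 (black circles), the read-through gene Tnfsfm13 (red squares) and Tnfsf13 (blue triangles) in each of the 9 libraries, ordered by title prefix. Tnfsf12 is the highest of the genes in every library, and in Kmo_AngII replicate 1, at 10.2 CPM, it lies nearest to Tnfsfm13, at 8.33 CPM.

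The other genes of the pathway were read from 7 lists of 98 genes in all, written with earlier results of these data known: TWEAK binding partners (Cd163 alone), adaptors and kinases that act below Fn14, NF-kB subunits and inhibitors, genes known to respond to TWEAK, other TNF superfamily ligands, other TNF receptors, and growth-factor-inducible immediate-early genes, the class in which Fn14 was found. In the 9-library fits, 87 of the 98 were tested.

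By treatment label, edgeR's quasi-likelihood test with Benjamini-Hochberg adjustment called none of the 87, at an adjusted p under 0.05, in any of the 3 comparisons, and 0% of all genes tested. At an unadjusted p under 0.05 there were 3 of the 87 in AngII minus Ctrl, where 5.25% of all genes passed. There were 3 in Kmo_AngII minus AngII, where 2.16% of all genes passed, and 2 in Kmo_AngII minus Ctrl, where 2.79% passed. DESeq2 called 0 pathway genes in each of them, and 8, 3 and 9 of all genes. The median log2 difference of the 87 was 0.11, 0.13 and 0.26 in these comparisons, against 0.02, 0.03 and 0.05 over all genes. Among the genes with the smallest p of their list were a kinase, an NF-kB inhibitor, chemokines and a receptor. For AngII minus Ctrl, Chuk, the kinase IKK-alpha, had a log2 difference of 0.71 ± 0.28 (SE), with an edgeR adjusted p of 0.890. Nfkbib, an inhibitor of NF-kB, had -0.56 ± 0.21 in the same comparison (edgeR adjusted p = 0.890). Ccl7, a monocyte chemokine, had 1.92 ± 0.74 for Kmo_AngII minus AngII (edgeR adjusted p = 0.9998). Its levels were low, at 0.470 to 0.871 CPM in AngII and 0.621, 1.88 and 4.54 CPM in Kmo_AngII replicates 1, 2 and 3. The receptor Tnfrsf25 had -1.13 ± 0.33 in the same comparison (edgeR adjusted p = 0.9998). The chemokine Ccl5 had 1.62 ± 0.71 for Kmo_AngII minus Ctrl (edgeR adjusted p = 0.998).

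By title prefix, the 9-library fit again called none of the 87 in edgeR and 0% of all genes. At an unadjusted p under 0.05, 15 of the 87 passed in WA minus WC, 8 higher and 7 lower, where 18% of all genes passed. For KKA minus WC 4 passed, against 3.51% of all genes, and for KKA minus WA 14 passed, all higher in KKA, against 7.05% of all genes. DESeq2 called 4 immediate-early genes in WA minus WC, 0 pathway genes in KKA minus WC and 1 in KKA minus WA, beside 514, 25 and 91 of all genes. The median of the 87 was -0.18 for WA minus WC, against -0.03 over all genes, and 0.27 for KKA minus WA, against 0.05. In KKA minus WA, Ccl5 had 2.51 ± 0.54 (SE), with an edgeR adjusted p of 0.565. Its levels were low, at 0.143 to 0.625 CPM in WA and 1.22 to 2.81 in KKA. The 11 tested response genes had a median of 0.97 there, against 0.05 over all genes. That list includes Ppargc1a, which TWEAK is known to lower, so its median is not a response in 1 direction. The KKA counts rest on 1 library: without Kmo_AngII replicate 1, edgeR called 14 of the pathway genes in KKA minus WA and 9 in WA minus WC, but also 1709 and 1576 of all genes. Neutrophil markers were at 316 CPM in Kmo_AngII replicate 2 and 5.03 to 180 elsewhere, and macrophage markers were at 322 and 356 CPM in Kmo_AngII replicates 2 and 3 and 142 to 201 elsewhere; the part of these cells in the chemokine values was not tested.

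The fit of the 6 WA and WC libraries, in which the common dispersion was 0.0880 against 0.156 over 9 libraries, gave the calls that follow. Of 84 pathway genes tested, edgeR called 13 at an adjusted p under 0.05, beside 13.3% of all 18111 genes tested. The 7 higher calls stood beside 8.06% of all genes called higher, and the 6 lower calls beside 5.25% called lower. The 13 are 15.5% of the 84, a share near that of all genes, and their median log2 difference was -0.16, against -0.01 over all genes. The count fell to 7, 5, 4 and 4 without Ctrl replicates 1, 2 and 3 and AngII replicate 2, and calls over all genes fell with it, from 2409 to 1020, 1270, 524 and 459. With library size as the only scaling 3 pathway genes (Ccn2, Mmp9 and Tnfsf14) and 232 of all genes were called.

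Growth-factor-inducible immediate-early genes gave most of the higher calls: 5 of the 17 tested were called higher in WA and 0 lower. Over all genes, 8.06% were called higher and 5.25% lower. The median log2 difference of the list was 0.52, and 11 of the 17 had a difference above 0. Ccn2, which encodes the matricellular connective tissue growth factor, had 105, 67.9 and 66.1 CPM in the WA libraries (Ctrl replicates 2 and 3 and AngII replicate 3). In the WC libraries (Ctrl replicate 1 and AngII replicates 1 and 2) it had 20.6, 27.4 and 19.96 CPM. Its log2 difference was 1.83 ± 0.22 (SE, edgeR adjusted p = 0.00223). Atf3, a stress-induced transcription factor, had 13.8 ± 4.03 CPM in WA and 3.87 ± 1.22 in WC (SD, n = 3 each), a difference of 1.85 ± 0.28 on the log2 scale (SE, edgeR adjusted p = 0.00418). Ccn1, the related matricellular protein CYR61, had 42.8 ± 5.77 CPM in WA and 18.2 ± 3.90 in WC (SD, n = 3 each), which is 1.25 ± 0.19 higher on the log2 scale (SE, edgeR adjusted p = 0.00433). These 3 genes were called in each of the 6 fits that left out 1 library, but with library size only Atf3 (edgeR adjusted p = 0.0707) and Ccn1 (0.256) were not, and Ccn2 was (0.0478). Srf, the serum response factor, rose by 0.94 ± 0.22 (SE, edgeR adjusted p = 0.0181) and was called in 2 of the 6. The fifth call, Jund, was outside the rule for named genes and is named after its values were seen. Fos, with -0.69 ± 0.38 (SE, edgeR adjusted p = 0.257), and Egr1, with -0.07 ± 0.28 (SE, edgeR adjusted p = 0.898), were not called. Fosb (-0.80), Junb (-0.44), Ier2 (-0.36) and Maff (-0.04) were also below 0 and not called. The KKA libraries again differed among themselves, as for the receptor: Ccn2 had 117, 20.9 and 64.1 CPM and Atf3 14.1, 4.19 and 3.33 CPM in Kmo_AngII replicates 1, 2 and 3.

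Downstream of the receptor, few genes were called, at shares close to those of all genes, although list medians lay below 0. Of 14 adaptors and kinases tested, 1 was called lower (7.14%), against 5.25% of all genes. Their median was -0.40, against -0.01 over all genes, and 4 of the 14 had a difference above 0. DESeq2 called 3 of them, beside 3437 of all genes. The edgeR call was Birc3, the ubiquitin ligase cIAP2 that binds TRAF2. It had 7.05 ± 1.21 CPM in WA and 11.6 ± 0.728 in WC (SD, n = 3 each), a change of -0.71 ± 0.19 on the log2 scale (SE, edgeR adjusted p = 0.0329). Lower but not called were Chuk, with -0.74 ± 0.22 (SE, edgeR adjusted p = 0.0505), and Traf1, with -0.81 ± 0.26 (SE, edgeR adjusted p = 0.0633). Ikbkb, with -0.45 ± 0.17, and Traf5, with -0.71 ± 0.26, were not called either (SE, edgeR adjusted p = 0.0935 and 0.0965). Traf3 was higher and not called, with 0.39 ± 0.18 (SE, edgeR adjusted p = 0.187). Traf2 itself had 0.09 ± 0.22 (SE, edgeR adjusted p = 0.829). Map3k14, the kinase NIK of the non-canonical NF-kB branch, had -0.17 ± 0.25 (SE, edgeR adjusted p = 0.694). Of 10 NF-kB subunits and inhibitors tested, 2 had a difference above 0, the median was -0.20 and 1 was called lower. It was Bcl3, a nuclear partner of the p50 and p52 subunits, at 5.13 ± 0.471 CPM in WA and 9.04 ± 1.66 in WC (SD, n = 3 each), a change of -0.80 ± 0.21 on the log2 scale (SE, edgeR adjusted p = 0.0280). Nfkb2, which encodes p52, had -0.01 ± 0.18 and Relb -0.36 ± 0.29 (SE). Birc3 was called in 2 and Bcl3 in 1 of the 6 fits that left out a library.

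Among the 11 response genes tested, 1 was called higher and 2 lower, with a median of -0.37. Over all genes, 8.06% were called higher and 5.25% lower. Icam1, an adhesion molecule for leukocytes, had 11.1, 16.2 and 18.7 CPM in the WA libraries and 31.5, 37.1 and 29.7 CPM in the WC libraries. The log2 difference was -1.08 ± 0.21 (SE, edgeR adjusted p = 0.00843), called in 5 of the 6 fits that left out a library. Mmp9, a gelatinase abundant in neutrophils, fell by 1.76 ± 0.46 on the log2 scale (SE, edgeR adjusted p = 0.0275) from a low level of 2.98 ± 1.93 CPM in WC to 0.863 ± 0.269 in WA (SD, n = 3 each). Neutrophil markers moved with it, at 37.2 to 180 CPM in WC and 8.70 to 14.3 in WA, and 1 of the 4 was called lower. Their part was not tested. Ppargc1a, a co-activator of mitochondrial genes that TWEAK is known to lower in muscle, had 39.1 ± 10.5 CPM in WA and 21.5 ± 4.27 in WC (SD, n = 3 each), a rise of 0.87 ± 0.23 (SE, edgeR adjusted p = 0.0275). Trim63, the muscle ubiquitin ligase MuRF1, had 0.61 ± 0.19 (SE, edgeR adjusted p = 0.0551), and the chemokine Ccl2 had 0.09 ± 0.36 (SE, edgeR adjusted p = 0.895). Mmp9 was called in 2 and Ppargc1a in 1 of the fits that left out a library.

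Of the ligand's other partners and relatives, Cd163 was lower in WA, with 9.16, 7.21 and 9.78 CPM against 13.8, 16.3 and 14.95 in WC. The log2 difference was -0.77 ± 0.19 (SE, edgeR adjusted p = 0.0203), called in 2 of the 6 fits that left out a library. In Kmo_AngII replicates 1, 2 and 3, Cd163 had 6.56, 23.5 and 22.7 CPM, lowest in the library where the receptor was highest. Macrophage marker sums in these libraries were 161, 322 and 356 CPM, and their part in the Cd163 values was not tested. Between WA and WC, macrophage markers overlapped, at 142 to 189 CPM in WA and 175 to 201 in WC. Of these 7 markers 1 was called lower, against 5.25% of all genes. Among 22 other TNF receptors tested, 1 was called higher (4.55%), against 8.06% of all genes, with a list median of 0.00. It was Tnfrsf21, the death receptor DR6, with 12.1 ± 1.82 CPM in WA and 6.35 ± 0.904 in WC (SD, n = 3 each). Its rise was 0.94 ± 0.20 on the log2 scale (SE, edgeR adjusted p = 0.0123), called in 4 of the 6. Tnfrsf1a, the TNF receptor of most cells, had -0.16 ± 0.15 (SE, edgeR adjusted p = 0.520). Among 9 other TNF ligands tested, 1 was called lower (11.1%), against 5.25% of all genes, with a list median of -0.70. It was Tnfsf14 (LIGHT), near 0 throughout, at 0, 0.0695 and 0 CPM in WA and 0.266, 0.801 and 0.357 in WC (edgeR adjusted p = 0.0333). No WA library reached the level of the count filter, so Tnfsf14 was tested only through the WC libraries where it is higher and its call is no support for a fall. Without it, 12 of 83 pathway genes were called, 5 of them lower, and 0 of 8 TNF ligands, with a median of -0.59. Over all genes, 13.3% were called in either direction and 5.25% lower. Tnfsf14 was called in 1 of the 6 fits that left out a library, and DESeq2 gave no adjusted p for it. Tnf itself had -0.41 ± 0.80 (SE, edgeR adjusted p = 0.779).

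**Figure D4:**
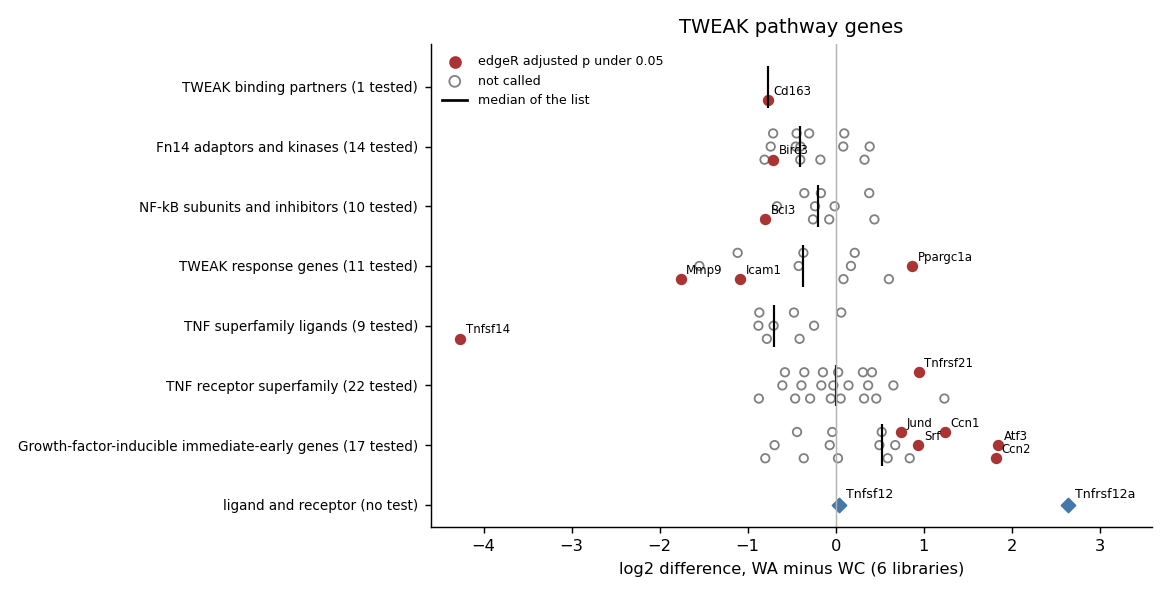
Log2 difference, WA minus WC, in the fit of 6 libraries for every tested pathway gene, by list; filled red points passed an edgeR adjusted p of 0.05, open circles did not, vertical lines are list medians and blue diamonds are the ligand and receptor, which were not tested. Of 84 genes 13 were called, and the receptor, at 2.64, lies to the right of every gene of the lists.

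Sums of some other cell type markers moved with the title prefix. Heart muscle markers summed to 32932 to 42342 CPM in WA and 21642 to 27678 in WC. Of these, 2 of 7 were called higher, Actc1 and Pln, with log2 differences of 2.31 and 0.98. Myl2 (0.73), Tnnt2 (0.59), Myh6 (0.26), Tnni3 (0.19) and Ryr2 (0.006) were not called. Red blood cell markers summed to 71.6 to 309 CPM in WA and 1875 to 4485 in WC, and 4 of 4 fell. Epicardial markers were at 7.96 to 9.78 CPM in WA and 14.2 to 15.4 in WC, and 1 of 4, Wt1, was called lower. The other epicardial markers, Upk3b, Upk1b and Msln, were at low levels and not called, with log2 differences of 1.21, 0.90 and 0.19. Endothelial markers were at 583 to 619 CPM in WA and 623 to 729 in WC, with 0 of 5 called. Over all genes in this fit, 8.06% were called higher and 5.25% lower. Fibroblast sums overlapped, with 2 of 6 higher, as did smooth muscle and T cell sums, with 0 called. Skeletal muscle markers stayed at 1.63 to 3.68 CPM, and 4 of the 7 were at 0 in some library. The part of these cell types in the receptor's difference was not tested.

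Genes whose levels followed the receptor's were found by ranking 11192 genes by Pearson r of log2 CPM over the 9 libraries, as a description. Since the receptor's levels form a low and a high set, a high r mostly restates which libraries are in each. Srl, which encodes the sarcoplasmic reticulum protein sarcalumenin, came first with r = 0.995 and a range of 87.7 to 458 CPM. The carboxypeptidase-like Cpxm2 followed with r = 0.993 and 7.14 to 59.1 CPM. The others were Cwc27 (r = 0.992), Arpc5l (0.987), Chpt1 (0.986), Myom1 (0.986), Ankrd23 (0.986), Dnajb4 (0.985), Txnl1 (0.985) and Ppa2 (0.984). Among them, Myom1, a protein of the sarcomere's M band, had 299 to 941 CPM, and the muscle ankyrin repeat gene Ankrd23 had 55.3 to 485. The genes most opposite were Cyp2d22 (r = -0.998, 32.5 to 96.1 CPM), Ccdc82 (-0.997), Bbs1 (-0.995), Parp8 (-0.990) and Abca1 (-0.990). Without Ctrl replicate 2, Kmo_AngII replicate 3 or both, r stayed between 0.981 and 0.996 for these 10 genes and between -0.998 and -0.987 for these 5. The genes were picked on all 9 libraries, and low and high libraries remained each time, so these values are no test of the likeness. Skeletal alpha-actin, Acta1, was at 617 to 686 CPM in the WA libraries and 11.3 to 17.4 in WC, and at 633, 39.6 and 12.98 CPM in Kmo_AngII replicates 1, 2 and 3, so its high libraries were the receptor's 4 high ones. The atrial natriuretic peptide gene Nppa separated from the receptor in Kmo_AngII replicate 3, at 1101 CPM where the receptor was at its lowest. That library also had the highest sum of atrial muscle markers, 1184 CPM. The part of atrial muscle in its Nppa level was not tested.

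For the ligand the closest genes were Nfia (r = 0.977, 29.2 to 51.8 CPM), Selenow (0.962), Epb41l3 (0.948) and the mitochondrially encoded mt-Nd4l (0.944, 1102.6 to 8293 CPM) and mt-Nd5 (0.939). The most opposite were Taz (-0.967), Aifm2 (-0.966), Ilvbl (-0.965), Wdr53 (-0.962) and Get4 (-0.960). Without Ctrl replicate 2 and Kmo_AngII replicate 3, r with mt-Nd4l and mt-Nd5 was 0.856 and 0.842. These levels share their TMM scaling with the ligand, and no list of mitochondrial genes was tested.

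**Figure D5:**
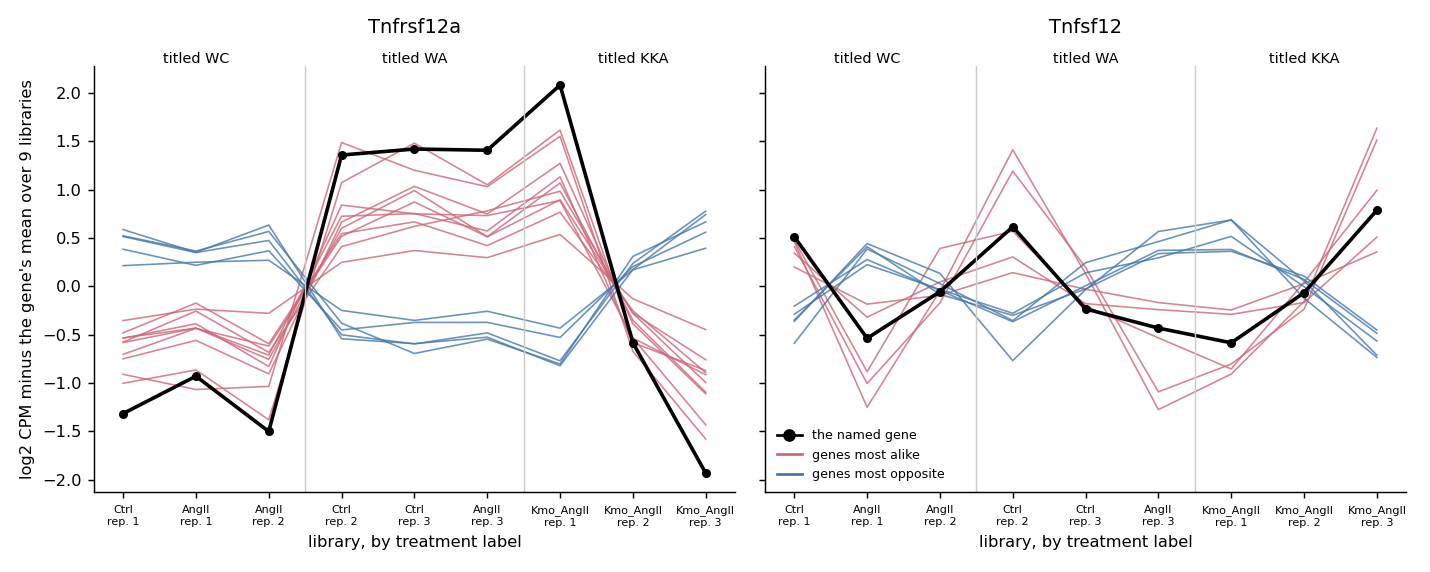
Log2 CPM minus each gene's mean over the 9 libraries, for Tnfrsf12a (left) and Tnfsf12 (right) in black, the genes most alike in red (10 and 5) and the genes most opposite in blue (5 each); lines join libraries only to guide the eye. The receptor and its most alike genes are high in the 3 WA libraries and Kmo_AngII replicate 1, and the ligand is highest in Kmo_AngII replicate 3.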

How the data were processed

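The values are gene counts for 9 libraries, deposited as a single table, with whole numbers per Ensembl gene per the file headers. The submitters' processing notes name Bowtie 0.12.2, HISAT2 2.0, StringTie 1.3.0 and the build mm8, without roles; the sources used here name no annotation and no strand setting. Symbols were matched through the supplied tables for 55141 of 55401 genes. No 2 libraries of a label agreed within sampling noise (smallest chi-square per degree of freedom 62.1).

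Counts were tested in edgeR 4.0.16 (R 4.3.3, limma 3.58.1) with filterByExpr, TMM factors, robust quasi-likelihood tests and Benjamini-Hochberg adjustment at 0.05 over all genes tested, in 1 fit by treatment label and 1 by title prefix over 9 libraries, and 1 over the 6 WA and WC libraries. CPM are TMM-scaled; log2 CPM used a prior count of 2. The procedure was also run on simulated counts with a single dispersion for all genes. That setting is simpler than these libraries, so it does not show how the tests behave on them. The 2 genes, the lists and the 6-library fit were chosen with earlier results of these data known.

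Named by rule were, per list and comparison, up to 4 called genes by smallest p, or the gene of smallest p where none was called, together with the genes most alike and most opposite among established symbols with mean log2 CPM of at least 1, genes overlapping the ligand or receptor, and a few muscle genes. Genes of the lists outside the rule are named after their values were seen. Alternatives were DESeq2 1.42.0, its size factors, library size only, no filter, the other grouping as a covariate and each library left out. Exon lengths come from GENCODE M21 and promoter windows from RefSeq (GRCm38.p6); they were not mapped to the files' build.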

Additional observations from a re-analysis of the deposited data

How the results depend on the processing

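The receptor's WA minus WC difference kept its direction under every setting run, at 2.30 with library size only in both fits, 2.50 to 2.80 with each library left out over 9 libraries and 2.52 to 2.83 over 6. Its AngII minus Ctrl value reversed to 0.028 with library size only and 0.073 with title prefix as a covariate, and ran from -2.10 to -0.24 over libraries left out. Its Kmo_AngII minus Ctrl value reversed to 0.41 with library size only and 0.055 with library size counted without mitochondrial genes, and ran from -2.02 to 0.38. Its Kmo_AngII minus AngII value ran from -1.34 to 1.97, KKA minus WC from 0.12 to 2.52 and KKA minus WA from -2.50 to -0.10. The ligand's AngII minus Ctrl value was -0.0087 with library size only, -0.40 with Tnfsfm13 added and -0.89 to -0.51 over libraries left out. Its Kmo_AngII minus Ctrl value was -0.027 with Tnfsfm13 added, reversed to 0.067 with library size only and 0.0085 without mitochondrial genes, and ran from -0.65 to 0.077, and its Kmo_AngII minus AngII value ran from 0.02 to 0.75. Its WA minus WC value reversed to -0.31 (library size only), -0.0019 (no filter), -0.21 (covariate), -0.25 (without mitochondrial genes) and -0.041 (Tnfsfm13 added), and in 6 libraries to -0.31, -0.19 (covariate), -0.25 and -0.026, with -0.36 to 0.33 and -0.35 to 0.35 over libraries left out. KKA minus WC reversed to -0.076 with library size only and ran from -0.34 to 0.43, and KKA minus WA ran from -0.36 to 0.48. Beyond the settings' own construction, the cause was not tested.

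Pathway genes called in the 9-library fits stayed at 0 to 0 over libraries left out for 4 comparisons, and ran from 0 to 9 for WA minus WC and 0 to 14 for KKA minus WA, the upper values without Kmo_AngII replicate 1, where 1576 and 1709 of all genes were called. DESeq2 called 4 and 1 in these, and 514 and 91 of all genes. In 6 libraries the 13 calls (2409 of all genes) became 3 (232) with library size only, and 4 (without Ctrl replicate 3 or AngII replicate 2) to 14 over libraries left out, with 459 to 2980 over all genes. DESeq2 called 17 (3437 of all genes), its size factors gave 14 (2427), no filter 15 (2352) and the treatment label as a covariate 10 (1946). Library size only moved the median of all genes by over 0.1: from 0.02 to 0.67 (AngII minus Ctrl), 0.03 to -0.29 (Kmo_AngII minus AngII), 0.05 to 0.37 (Kmo_AngII minus Ctrl), -0.03 to -0.33 (WA minus WC), 0.05 to -0.13 (KKA minus WC) and 0.05 to 0.16 (KKA minus WA). The settings without mitochondrial genes, with Tnfsfm13 added and without Tnfsf14, and the correlations without single libraries, were chosen after seeing the data. No paired analysis was possible because replicate numbers follow the order of deposit and pair no libraries.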
